A study of Mus musculus with 16 samples.

Results

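Genes of the fetal-like and regenerative state of the gut epithelium, *Ly6a*, *Ly6d*, *Clu*, *Anxa1*, *Anxa3*, *Mcam*, *Il33* and *Msln* (8 genes), were followed in mouse intestine with and without *Cul4b*, which encodes a scaffold of the CRL4B ubiquitin ligase. The 8 genes were picked by symbol from the 52636 genes listed for the crypts and for the KO-CAG organoids and the 54532 listed for the KO-IEC organoids, and all 8 were listed in each. They were selected with their difference between KO and WT already known, so that difference is described here for each gene without a test. RNA-seq was available for 16 libraries of C57BL/6 background in 3 experiments. The crypts came from 4 WT mice and 4 KO-IEC mice (pVillin-Cre; Cul4b fn/Y), in which Cre is driven by the villin promoter and deletes the floxed gene in the gut epithelium. The study gives the WT control of KO-IEC as Cul4b fn/Y and names no Cre for it. The presence of Cre and the deletion thus cannot be told apart in KO-IEC. Most experiments of the study used mice aged 8 to 16 weeks. Organoids, which are epithelial cultures grown from crypts in Matrigel, were sequenced from WT and KO-IEC with 2 libraries each. The remaining experiment compared 2 WT libraries with 2 KO-CAG libraries (CAG-CreERT2; Cul4b fn/Y), in which Cre is driven by the broadly active CAG promoter and is switched on by a tamoxifen derivative in the culture. Whether the WT cultures of that experiment carried CreERT2 or received the drug was not given in the sources used here, so the deletion cannot be told apart from the induction. The /Y in the genotype means that the mice were male, and the replicates were described as biological without saying which mice the cultures came from.

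After injury, and in some cultures, the gut epithelium can take up genes that are otherwise active in the fetal intestine, while genes of the *Lgr5*-positive stem cell at the crypt base go down. *Ly6a* (Sca-1) is a widely used surface marker of that state, and *Clu* marks rare crypt cells that expand after damage. The switch is best known as a response to YAP, the effector of the Hippo pathway, and *Ly6a* is also inducible by interferon. The other genes used here encode a further small surface protein of the Ly6 family (*Ly6d*), calcium-dependent membrane-binding proteins (*Anxa1*, *Anxa3*), an adhesion molecule of the immunoglobulin family (*Mcam*), an alarmin cytokine held in the nucleus (*Il33*) and a membrane-anchored surface protein best known from mesothelium (*Msln*).

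On mouse build GRCm38 the genes lie at chr15:74994877-74998031 (*Ly6a*, minus strand), chr15:74762056-74763620 (*Ly6d*, minus), chr14:65968483-65981547 (*Clu*, plus), chr19:20373428-20390944 (*Anxa1*, minus), chr5:96793339-96845966 (*Anxa3*, plus), chr9:44134469-44142727 (*Mcam*, plus), chr19:29925114-29960718 (*Il33*, plus) and chr17:25748614-25754327 (*Msln*, minus). These are the positions in the count tables, and for 7 of the 8 they equal those of GENCODE M21, while *Msln* differs at its ends. *Anxa1* and *Mcam* are each overlapped by a gene on the opposite strand (1500015L24Rik and Gm10687) and *Anxa3* by Gm42603 on its own strand. Since the strand setting of the counting was not given, reads where *Anxa1* or *Mcam* overlaps its neighbour cannot be told apart. For *Anxa3* and Gm42603 no strand setting would separate them. Of the 50-base stretches in the *Ly6a* transcripts, 19.0% also occur in another gene, mostly *Ly6c1*, a close relative. *Ly6c1* itself held 2 counts over the WT and 0 over the KO-IEC crypt libraries. The share was 1.79% for *Anxa3*, all of it with Gm42603, 2.88% for *Msln* and 0% for the other 5 genes.

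Start regions were listed in the RefSeq-derived table (GRCm38.p6) for 3 of the 8 genes, *Anxa1*, *Mcam* and *Il33*. The 250 bases before each start were searched on both strands for GGAATG (the TEAD motif, through which YAP acts), TGANTCA (AP-1) and GAAANNGAA (the interferon-stimulated response element). *Il33* has 2 listed starts, and its regions are shown because no annotated exon overlaps them, with matches in capitals, in the direction of the gene.
Il33, outer start, chr19:29924863-29925112, plus strand: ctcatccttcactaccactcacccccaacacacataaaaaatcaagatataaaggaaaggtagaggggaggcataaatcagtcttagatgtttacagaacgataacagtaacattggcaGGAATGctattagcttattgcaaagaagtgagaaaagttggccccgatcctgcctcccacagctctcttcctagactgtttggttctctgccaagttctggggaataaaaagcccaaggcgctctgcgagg
Il33, inner start, chr19:29945540-29945789, plus strand: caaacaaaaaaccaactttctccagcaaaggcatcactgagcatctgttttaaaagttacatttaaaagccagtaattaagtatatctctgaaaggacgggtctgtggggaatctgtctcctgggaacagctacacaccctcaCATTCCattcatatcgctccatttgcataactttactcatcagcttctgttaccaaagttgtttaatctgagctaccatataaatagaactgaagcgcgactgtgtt
Each *Il33* region held 1 TEAD match, at positions -131 to -126 and -107 to -102 from the start, the second on the opposite strand. The *Anxa1* region held 1 TEAD match as well, at -236 to -231, and the *Mcam* region held none of the 3 motifs. Each of these regions overlaps 3 annotated exons. The *Anxa1* region (chr19:20390672-20390921) lies inside the span of the gene given above, and the *Mcam* region (chr9:44134408-44134657) reaches into its gene. Among 32851 regions of the same length, 12.6% held the TEAD letters, 6.75% the AP-1 letters and 7.13% the interferon letters. A match of letters is a description of the sequence and was not set against binding.

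Total counts per library were 9311734 to 13479974 in the crypts, 15006730 to 16881395 in the KO-IEC experiment and 7348191 to 10462275 in the KO-CAG experiment. A level of 3 counts, taken as the floor, corresponded to 0.223 to 0.322, 0.178 to 0.200 and 0.287 to 0.408 CPM (counts relative to the total of the library), which covers counting error only. *Cul4b* was lower in the knockouts of all 3 experiments, with log2 fold changes of -4.56 for crypts (edgeR adjusted p = 0.000169), -5.50 in the KO-IEC organoids (edgeR adjusted p = 0.0311) and -4.02 in the KO-CAG organoids (edgeR adjusted p = 1.93e-06). The crypt libraries differed in mitochondrial ribosomal RNA, which was 18.9 to 25.2 CPM in WT replicate 1 and KO-IEC replicates 1 to 3, 834 and 1078 CPM in WT replicate 4 and KO-IEC replicate 4, and 2840 and 2873 CPM in WT replicates 2 and 3. Epithelial markers summed to 6493 CPM or more in every library, so the labelled tissue was present throughout.

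In the KO-CAG organoids all 8 genes stood higher than in WT, and for each of them both KO libraries lay above both WT libraries. The log2 fold changes ran from 2.22 (*Clu*) to 5.05 (*Mcam*) among the 7 genes with WT reads, and *Ly6d* had no read in either WT library. The 8 genes passed the low-count filter, with *Ly6d* and *Il33*, which had no or few WT reads, passing through their KO-CAG libraries. The median log2 fold change of the 8 was 2.75, against 0.0012 over the 13598 genes tested. Of those tested, 35.5% had both KO libraries above both WT libraries and 34.2% had both below. The 8 genes were selected on this contrast, so nothing is read from their count or their median. CPM values were scaled by TMM within each experiment, and fold changes come from edgeR's fit with their standard error (SE).

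The Ly6 surface proteins came first. *Ly6a* was at 2.77 and 2.72 CPM in the WT libraries and at 32.1 and 16.5 CPM in the KO-CAG libraries, from 23 and 21 against 231 and 172 counts. It was thus 8.66 times the WT level (log2 fold change 3.11, SE 0.35). *Ly6d* had 0 counts in both WT libraries and 50 and 30 counts in the KO-CAG libraries, or 6.95 and 2.88 CPM. Set against the floor of 3 counts per WT library, *Ly6d* was at least 12.8-fold higher in the mean of the KO-CAG libraries. Its reads were thus present only in the knockout cultures of this experiment, at a modest level.

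Of the annexins, *Anxa1* was at 1.81 and 2.98 CPM in WT against 42.3 and 27.6 CPM in KO-CAG, a log2 fold change of 3.86 (SE 0.29). The product of *Anxa1* is known as a mediator that limits inflammation and aids wound closure. *Anxa3* started from a higher level, 13.3 and 13.0 CPM, and stood at 76.0 and 53.7 CPM in KO-CAG (log2 fold change 2.29, SE 0.18). The WT replicates of *Anxa3* were close to each other, with a mean of 13.1 ± 0.21 CPM (SD, n = 2).

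*Mcam* (CD146), which in the gut is better known from vessels, had the largest fold change of the 7 genes with WT reads. It rested on 8 and 10 counts in WT against 290 and 368 in KO-CAG, or 0.964 and 1.30 against 40.3 and 35.4 CPM, which is 33.1 times the WT level (log2 fold change 5.05, SE 0.22). The endothelial markers *Cdh5* and *Kdr* had no read in any of the 4 libraries, *Pecam1* had 2 and 2 counts in WT and 8 and 10 in KO-CAG, and *Vwf* was called lower (2.59 to 0.615 CPM). The 6 endothelial markers together summed to 2.98 to 4.22 CPM in WT against 2.22 to 2.79 CPM in KO-CAG. The pericyte and smooth muscle markers summed to 1.93 to 2.20 CPM in WT against 5.38 to 10.01 CPM in KO-CAG, with *Acta2* at 0 in all 4 libraries. *Rgs5* was called higher, from 1 and 2 counts to 45 and 43 (log2 fold change 4.66, edgeR adjusted p = 0.000224). *Pdgfrb*, from 8 and 10 counts to 13 and 7, was not called (log2 fold change 0.04). The part of these cell types in the *Mcam* level was not tested.

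*Clu*, which encodes the secreted chaperone clusterin, had the highest mean CPM of the 8 genes in both groups, although *Anxa3* was above it in WT replicate 1. It was at 11.1 and 37.1 CPM in WT against 132 and 92.4 CPM in KO-CAG (log2 fold change 2.22, SE 0.36). The WT replicates differed more from each other than those of *Ly6a* or *Anxa3*, and the log2 fold change was 1.58 without WT replicate 1 and 3.32 without WT replicate 2. *Msln* showed the same split, with 2.77 and 14.1 CPM in WT against 48.8 and 30.2 CPM in KO-CAG. Its log2 fold change of 2.23 (SE 0.45) became 1.46 without WT replicate 1 and 3.81 without WT replicate 2. Markers of mesothelium, the best known source of *Msln*, summed to 19.8 to 21.3 CPM in WT against 6.67 to 7.60 CPM in KO-CAG. The lower sum came from *Upk3b* (18.8 to 4.07 CPM, called lower), while *Upk1b* lay higher in both KO-CAG libraries (1.51 to 2.70 CPM, not called) and *Wt1*, *Bnc1* and *Lrrn4* had at most 3 counts in any of these 4 libraries. Their part in the *Msln* level was not tested.

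*Il33* was the scarcest of the 8 genes in the KO-CAG libraries, at 0.723 and 0.648 CPM in WT against 5.00 and 2.50 CPM in KO-CAG. These values came from 6 and 5 counts against 36 and 26 counts, with a log2 fold change of 2.38 (SE 0.50). *Il1rl1*, which encodes the receptor of this cytokine, had no count in the 4 libraries, so it was not detectable at this depth.

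**Figure D1:**
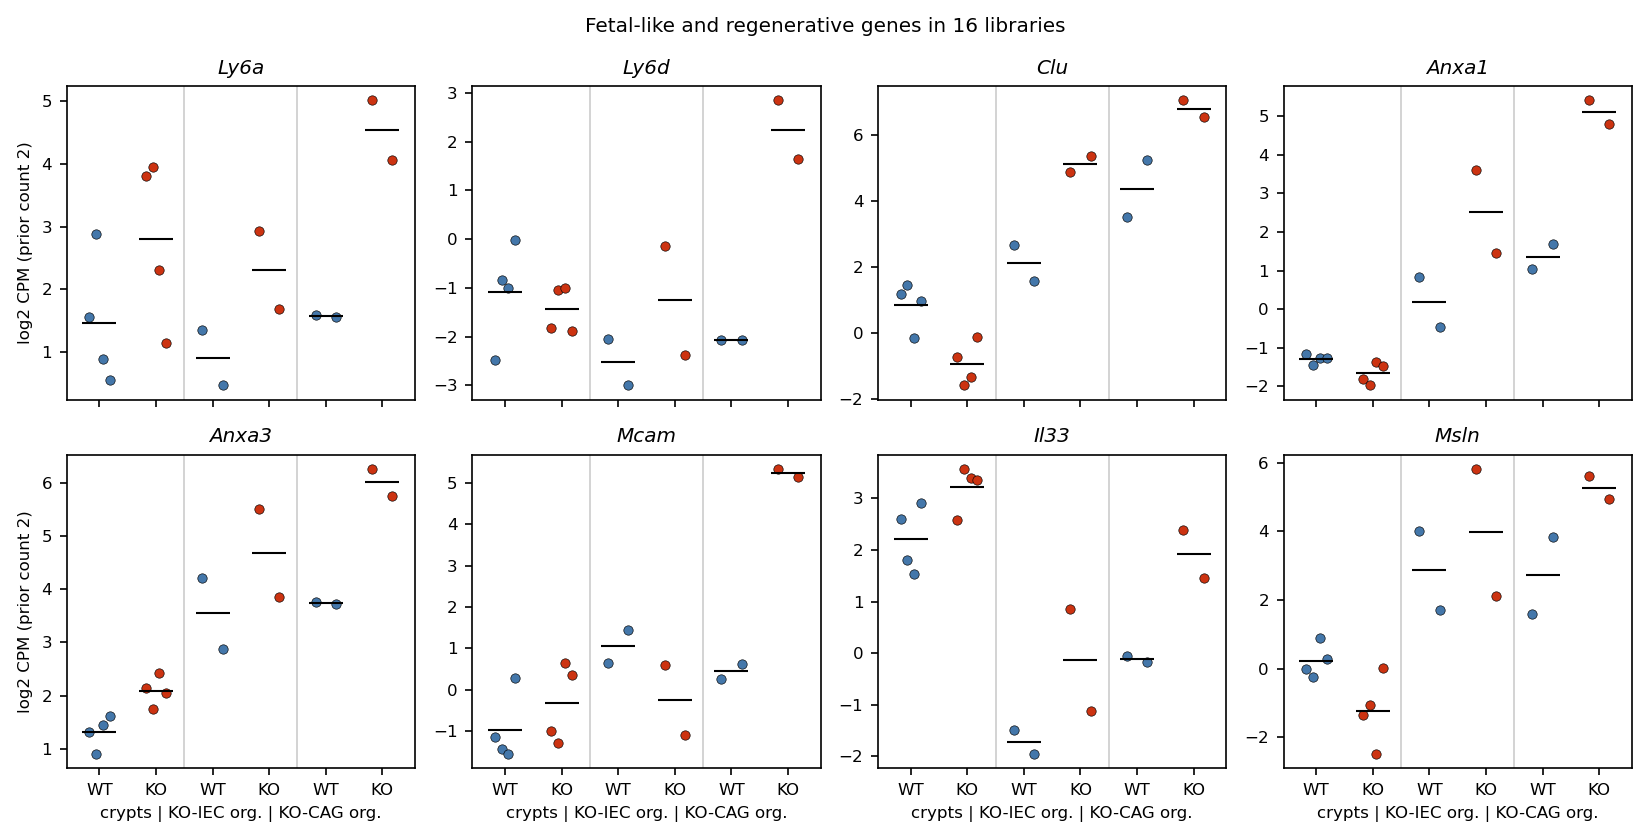
Each panel plots 1 gene, with log2 CPM (prior count of 2) on the vertical axis and WT (blue) and KO (red) libraries of the crypts, KO-IEC organoids and KO-CAG organoids from left to right. Points are libraries and bars are group means. At the right of every panel both KO-CAG points lie above both WT points. In crypts the group means of *Clu* and *Msln* are lower in KO-IEC than in WT, with points that overlap.

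Since longer transcripts collect more reads, levels were compared between genes as RPKM, in which CPM is divided by gene length, from the lengths given in the tables. In KO-CAG organoids the order of mean RPKM was *Clu* (32.6), *Ly6a* (20.2), *Msln* (18.7), *Anxa3* (17.8), *Anxa1* (13.4), *Mcam* (11.3), *Ly6d* (6.61) and *Il33* (1.30). The libraries of *Ly6a*, *Msln* and *Anxa3* overlapped, as did those of *Anxa3* and *Anxa1* and those of *Anxa1* and *Mcam*, so these neighbours were not separated beyond the spread of their 2 replicates. In WT of the same experiment the order began with *Clu* (7.003 RPKM), *Msln* (4.00 RPKM), *Anxa3* (3.60 RPKM) and *Ly6a* (2.28 RPKM) and ended with *Il33* (0.237 RPKM) and *Ly6d* (0 RPKM). The leading genes were not separated. In WT replicate 1 *Anxa3* (3.64 RPKM) was above *Clu* (3.22 RPKM), and *Msln* (1.31 RPKM) was below *Ly6a* (2.30 RPKM). The range from the first to the last gene with reads was thus wide in both genotypes.

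**Figure D2:**
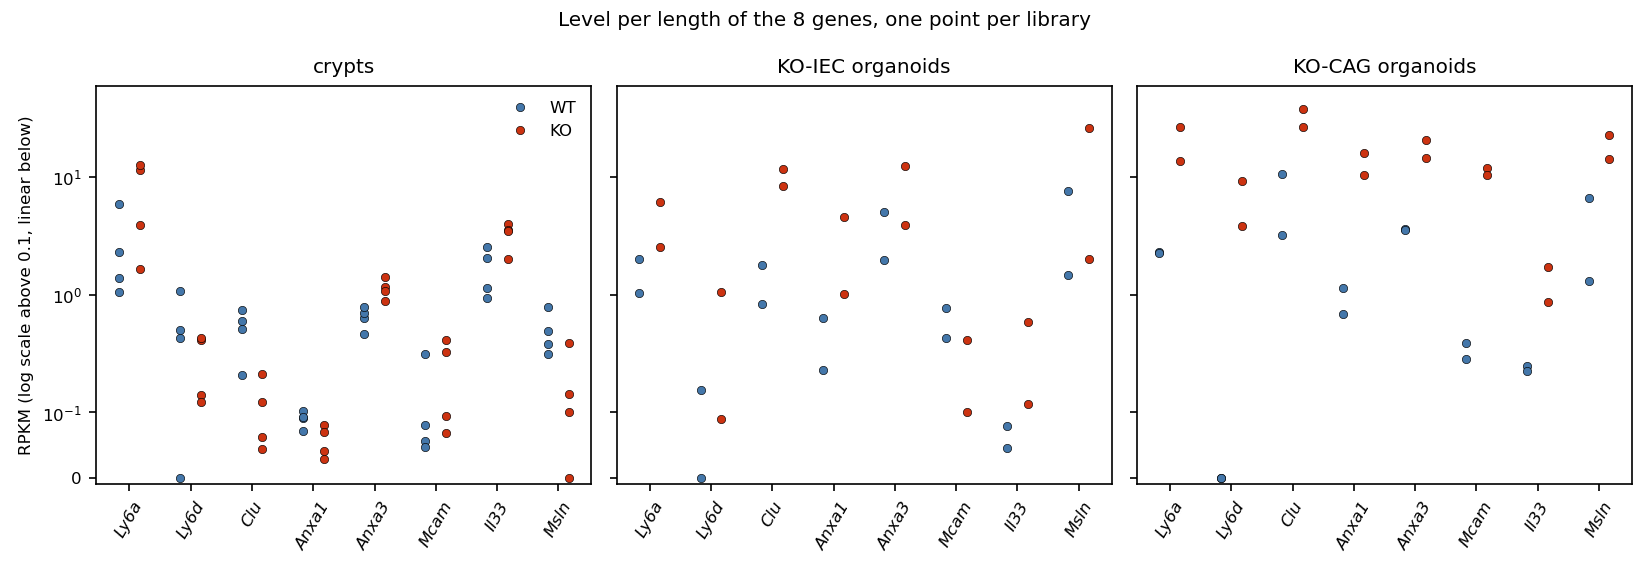
RPKM of the 8 genes in every library, with WT in blue and KO in red, on an axis that is logarithmic above 0.1 and linear below. In crypts *Ly6a* and *Il33* lead and *Anxa1* is lowest, while in KO-CAG organoids *Clu* leads, at a mean of 32.6 RPKM, and *Il33* is lowest, at 1.30 RPKM.

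In the KO-IEC organoids, in which the epithelium had lost *Cul4b* in the animal, the 8 genes were less uniform. *Clu* differed most evenly, *Ly6a*, *Anxa1* and *Il33* lay higher in both KO libraries than in both WT libraries, and *Mcam* lay lower in both. *Ly6d*, *Anxa3* and *Msln* overlapped between genotypes. Of the 13938 genes tested, 19.4% had both KO libraries above both WT libraries and 19.4% both below. The 6 genes that passed the filter (all but *Ly6d* and *Il33*) had a median log2 fold change of 1.58 with 5 positive and 1 negative, against -0.010 over all genes tested. They were selected on this contrast too, so nothing is read from that median.

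*Clu* was at 6.22 and 2.85 CPM in WT against 29.0 and 40.7 CPM in KO-IEC (log2 fold change 2.93, SE 0.45), and its log2 fold change lay between 2.47 and 3.61 when 1 library was left out. It was the only one of the 8 genes with a higher value in KO replicate 2 than in KO replicate 1. *Ly6a* was at 2.42 and 1.26 CPM in WT against 7.47 and 3.11 CPM in KO-IEC (log2 fold change 1.52, SE 0.61). *Anxa1* was at 1.67 and 0.597 CPM in WT against 11.9 and 2.63 CPM in KO-IEC (log2 fold change 2.66, SE 0.91). In both genes the groups were separate but the KO replicates stood far apart.

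*Anxa3* was at 18.4 and 7.23 CPM in WT against 45.3 and 14.3 CPM in KO-IEC, so KO replicate 2 lay between the WT libraries (log2 fold change 1.21, SE 0.70). *Msln* was at 16.1 and 3.12 CPM in WT against 56.1 and 4.25 CPM in KO-IEC (log2 fold change 1.64, SE 1.31). The direction for *Msln* rested on KO replicate 1, without which its log2 fold change was -1.19. Without the same library the log2 fold changes were 0.74 for *Ly6a*, 1.19 for *Anxa1*, 0.15 for *Anxa3* and -2.55 for *Mcam*, and the median over the 6 genes was 0.45. Without WT replicate 1 that median was 2.67, the log2 fold change of *Msln* 3.27 and that of *Anxa1* 3.59.

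*Mcam* ran against the other genes, at 1.44 and 2.59 CPM in WT against 1.39 and 0.338 CPM in KO-IEC, from 25 and 39 against 23 and 5 counts (log2 fold change -1.20, SE 0.76). KO replicate 1 and WT replicate 1 were nearly level for this gene, and without KO replicate 2 the log2 fold change was -0.53. *Il33* had 4 and 2 counts in WT and 28 and 5 counts in KO-IEC, and *Ly6d* had 2 and 0 counts in WT and 13 and 1 counts in KO-IEC. Both were mostly seen in KO replicate 1, and neither passed the filter.

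Replicate 1 was above replicate 2 for 7 of the 8 genes among the WT libraries (all but *Mcam*) and for 7 of the 8 among the KO-IEC libraries (all but *Clu*). Enterocyte markers differed between the replicates in the opposite sense, with a summed level of 4989 and 8957 CPM in WT replicates 1 and 2 and of 3304 and 11316 CPM in KO-IEC replicates 1 and 2. Mitochondrial ribosomal RNA was at 1418 and 2176 CPM in the WT and at 1241 and 2467 CPM in the KO-IEC replicates. Goblet cell markers summed to 1594 and 1869 CPM in WT and to 1738 and 6607 CPM in KO-IEC. The part of these differences in the levels of the 8 genes was not tested. In the KO-CAG experiment, by contrast, enterocyte markers were higher in the knockout, at 3585 to 3919 CPM in WT against 8007 to 9982 CPM in KO-CAG, with 5 of 6 called higher, as were 4 of 5 Paneth cell and 5 of 6 goblet cell markers. There too their part was not tested, and in bulk RNA a change in the number of cells of a type and a change in RNA per cell cannot be told apart.

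In the crypts the WT means of *Ly6d*, *Anxa1* and *Mcam* were close to the floor, and those of *Clu* and *Msln* were 1.77 and 1.05 CPM. Only 3 of the 8 genes (*Ly6a*, *Anxa3* and *Il33*) passed the filter. These 3 had positive log2 fold changes with a median of 0.98, against -0.011 over the 13427 genes tested. *Clu* and *Msln* had fewer reads in KO-IEC. That median covers only genes that passed and is not read as a rise of the 8. Without the filter the log2 fold change was positive for *Ly6a* (1.485), *Il33* (0.96), *Mcam* (0.78) and *Anxa3* (0.77). It was negative for *Anxa1* (-0.71), *Ly6d* (-0.86), *Msln* (-1.59) and *Clu* (-2.21). *Anxa3* was the only one of the 8 genes with all 4 KO libraries above all 4 WT libraries, and none had all 4 below. Enterocyte markers summed to 3929, 1917, 1273 and 6028 CPM in WT replicates 1 to 4 and to 5536, 9066, 13814 and 11951 CPM in KO-IEC replicates 1 to 4. *Apoa4*, *Apoa1* and *Lct* were higher in all KO libraries than in all WT libraries without being called, and the lowest edgeR adjusted p of the 6 markers was 0.0547, for *Lct*. Their part in the crypt values of the 8 genes was not tested. Among all genes tested, 8.7% had all KO libraries above all WT libraries and 8.79% had all below.

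*Anxa3* was at 2.33, 1.70, 2.56 and 2.89 CPM in WT replicates 1 to 4 and at 4.23, 3.21, 5.20 and 3.95 CPM in KO-IEC replicates 1 to 4. The means were 2.37 ± 0.51 and 4.15 ± 0.82 CPM (SD, n = 4 each), and the log2 fold change was 0.79 (SE 0.24). *Il33* was at 5.91, 3.30, 2.72 and 7.32 CPM in WT against 5.81, 11.7, 10.4 and 10.1 CPM in KO-IEC, so KO-IEC replicate 1 lay within the WT range and the other 3 above it (log2 fold change 0.98, SE 0.34). When that class of mitochondrial RNA entered the fit, the value for *Il33* was 0.58. Between libraries of the low class it was 0.58 (1 WT and 3 KO-IEC) and between the pair of the middle class 0.46 on the log2 CPM scale, and the corresponding differences for *Anxa3* were 0.78 and 0.43.

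*Ly6a* varied widely within both genotypes, at 2.78, 7.16, 1.68 and 1.29 CPM in WT against 13.8, 15.3, 4.77 and 2.02 CPM in KO-IEC (log2 fold change 1.496, SE 0.69). KO-IEC replicates 1 and 2 were the highest and KO-IEC replicate 4 lay below WT replicates 1 and 2. The log2 fold change was 2.24 without WT replicate 2 and 1.10 without KO-IEC replicate 2. The difference was 1.80 within the low and 0.59 within the middle class of mitochondrial ribosomal RNA. Because *Ly6a* is also made by lymphocytes, their markers were set beside it. The 8 lymphocyte markers summed to 24.6 to 120 CPM in WT against 53.3 to 367 CPM in KO-IEC, with 53.3 and 75.1 CPM in KO-IEC replicates 1 and 2, where *Ly6a* was highest, and 367 CPM in KO-IEC replicate 3. Their part in the crypt *Ly6a* level was not tested. In organoids the same markers summed to at most 1.15 CPM, with *Cd8a*, *Trdc*, *Gzma* and *Gzmb* at 0 in all 8 libraries.

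The other 5 genes had few reads in crypts and are given as counts. *Clu* had 23, 27, 9 and 22 counts in WT and 4, 2, 2 and 8 in KO-IEC, so that the groups met only at WT replicate 3 and KO-IEC replicate 4. *Msln* had 9, 7, 21 and 13 counts in WT and 2, 4, 0 and 9 in KO-IEC. Its groups overlapped, with KO-IEC replicate 4 (0.827 CPM) above WT replicates 1 and 2 (0.806 and 0.660 CPM). Without the low-count filter the log2 fold changes of *Clu* and *Msln* were -2.21 (SE 0.54) and -1.59 (SE 0.64), the reverse of their direction in KO-CAG organoids. *Mcam* had 3, 2, 2 and 13 counts in WT and 3, 3, 13 and 12 in KO-IEC, *Ly6d* had 0, 4, 4 and 10 in WT and 1, 4, 3 and 1 in KO-IEC, and *Anxa1* had at most 3 counts in any crypt library. With so few reads no difference was detectable for these 3 genes. Fibroblast markers also had lower sums in KO-IEC crypts, 12.8 to 17.3 CPM in WT against 7.29 to 10.1 CPM. So had markers of macrophages and other myeloid cells, 28.0 to 40.8 CPM in WT against 16.8 to 27.3 CPM. Mesothelial markers summed to 3.21 to 6.35 CPM in WT against 2.55 to 6.34 CPM in KO-IEC. Their part in the *Clu* and *Msln* counts was not tested.

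**Figure D3:**
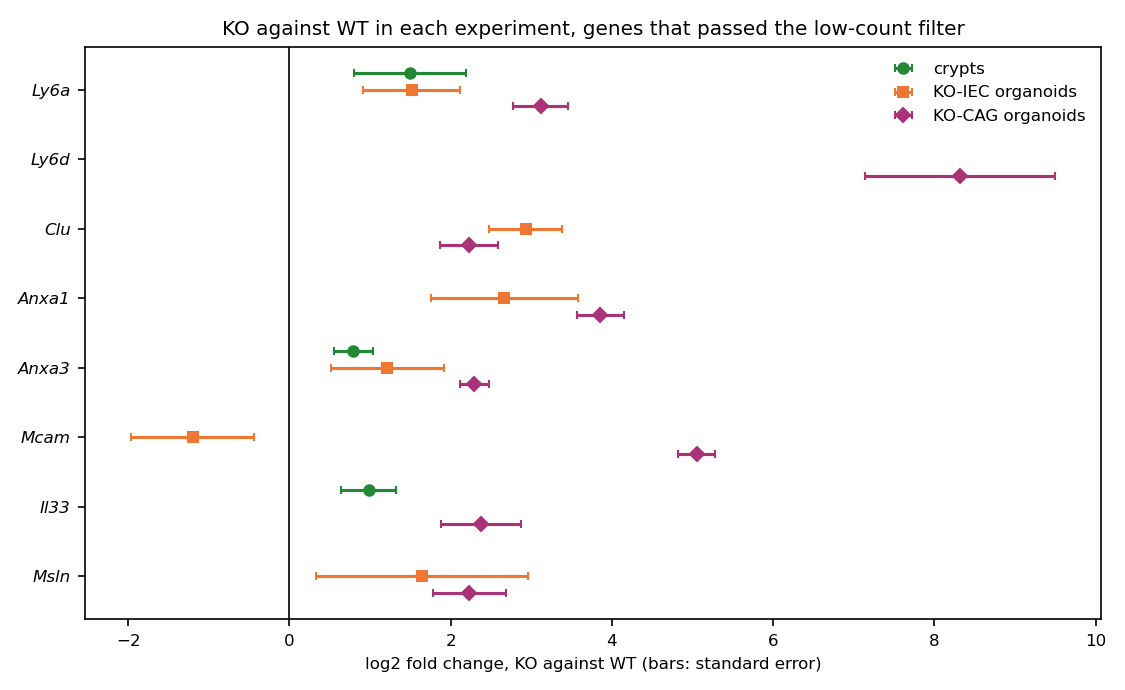
Log2 fold change of KO against WT with its standard error for the genes that passed the low-count filter, in crypts (green circles), KO-IEC organoids (orange squares) and KO-CAG organoids (purple diamonds). All 8 diamonds are right of 0, *Mcam* is left of 0 in KO-IEC organoids at -1.20, and the *Ly6d* point is a fitted value against WT libraries with 0 counts, which sets no bound.

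The 8 genes were also compared with each other across libraries, after the mean of each group had been subtracted. Over the 16 libraries, 26 of the 28 pairs of genes had a positive Pearson r, with a median of 0.37 and a range from -0.50 (*Ly6a* with *Mcam*) to 0.92 (*Anxa1* with *Anxa3*). The 8 organoid libraries alone gave a median of 0.80 with 26 positive pairs, and the 8 crypt libraries a median of -0.05 with 13 positive pairs. The organoid value rests on 4 groups of 2 libraries, and so on 4 independent deviations, and all pairs share the same libraries and depth. Pairs of other genes were not set beside these values, which are thus not read as particular to the 8 genes. The genes whose pattern was most like the mean of the 8 across 16 libraries, with the mean of each experiment subtracted, were *Myof* (r = 0.947), *Map2k3* (0.939), *Fbxo4* (0.928), *Paqr8* (0.917), *Bak1* (0.917), *Anxa5* (0.911), *S100a6* (0.910) and *Nploc4* (0.903), out of 12476 genes tested in all 3 experiments. These r values include the difference between genotypes on which the 8 genes were selected. With group means subtracted, r ran from 0.538 (*Nploc4*) to 0.827 (*Myof*), with 0.790 for *S100a6* and 0.760 for *Anxa5*. The genes were ranked on values that held these same deviations, so high r values within groups were favoured in advance.

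Other genes of the fetal-like and regenerative state formed a list of 29, of which 20 passed the filter in the KO-CAG experiment. This list and the lists below were chosen with earlier results of these data known. Their shares and adjusted p-values therefore describe these data and are not independent support. Of these, 16 rose (80%) and 2 fell (10%) in KO-CAG organoids, against 18.1% and 13.4% of all genes tested, at an adjusted p under 0.05. *Areg*, an EGF receptor ligand, rose from 18.7 ± 1.6 to 120 ± 21.7 CPM (SD, n = 2 each), with a log2 fold change of 2.67 (SE 0.14, edgeR adjusted p = 4.17e-06). *S100a6*, a calcium-binding protein, rose by 2.81 (SE 0.18, edgeR adjusted p = 8.31e-06) and *Cldn4*, a tight junction protein, by 1.69 on the log2 scale (SE 0.13, edgeR adjusted p = 1.81e-05). *Hmga2*, a chromatin protein of fetal tissues, fell by 0.68 on the log2 scale (edgeR adjusted p = 0.00624) and *Itga2*, a collagen receptor subunit, fell by 0.40 (edgeR adjusted p = 0.00505). *Gja1* had 2 counts in WT and 7 in KO-CAG and *Spp1* had none, so neither was tested. When the 16 libraries were fitted together, 6 genes of this list were called higher and 0 lower.

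The same list gave 2 genes higher and 0 lower among the 17 that passed in the crypts (11.8% and 0%, against 4.3% and 2.66% of all genes tested). *Areg* rose from 1.63 ± 0.94 to 7.02 ± 3.48 CPM (SD, n = 4 each, log2 fold change 2.10, edgeR adjusted p = 0.0460). *Cxadr*, a junction protein that serves as a virus receptor, rose by 0.40 (edgeR adjusted p = 0.0491). In the KO-IEC organoids 0 of the 18 that passed were called by edgeR, with 4 at an unadjusted p under 0.05 and 0 by DESeq2. Over the whole KO-IEC experiment 0% of the genes were called higher and 0.00717% lower, which is *Cul4b* alone. *Areg* there was at 27.7 and 32.4 CPM in WT against 16.3 and 17.6 CPM in KO-IEC, with a log2 fold change of -0.83 that did not pass (edgeR adjusted p = 0.856). When the mitochondrial RNA class entered the crypt fit, 0 genes of the 8 lists were called, while edgeR without it called 17 and DESeq2 called 32.

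Among 24 targets of YAP and TAZ, 18 passed the filter in the KO-CAG experiment, of which 10 rose (55.6%, against 18.1% of all genes) and 0 fell (against 13.4%). *F3* (tissue factor) rose by 1.71 (edgeR adjusted p = 7.17e-05), *Ajuba*, an adaptor that restrains Hippo signalling, by 1.29 (edgeR adjusted p = 8.59e-05), *Cyr61*, a matricellular protein, by 1.79 (edgeR adjusted p = 0.000163) and *Ctgf*, its relative, by 1.76 (edgeR adjusted p = 0.00670) on the log2 scale. *Cyr61* showed close replicates, at 4.46 and 4.41 CPM in WT against 15.4 and 15.3 CPM in KO-CAG. In the crypts, where 4.3% of all genes rose and 2.66% fell, of 14 targets (14.3% and 7.14% called) *Dock5* (0.81) and *Crim1* (0.64) rose and *Birc5*, a mitotic protein that also follows proliferation, fell by 0.74 (edgeR adjusted p = 0.0379, 0.0455 and 0.0431). *Cyr61* had a log2 fold change of 0.58 (edgeR adjusted p = 0.592) in crypts and -0.49 (edgeR adjusted p = 0.856) in KO-IEC organoids. Of 15 targets in the KO-IEC organoids edgeR called 0, with 2 at an unadjusted p under 0.05 and 0 by DESeq2.

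*Yap1* itself was at 140 ± 0.18 CPM in WT against 139 ± 1.41 CPM in KO-CAG (SD, n = 2 each), with a log2 fold change of -0.01 (SE 0.08), and its values in crypts and KO-IEC organoids, 0.06 (SE 0.10) and -0.10 (SE 0.18), did not pass either. Of 20 components of the Hippo pathway in the KO-CAG organoids, *Wwc1* (0.67) and *Taok3* (0.31), which act upstream of the core kinases, rose and *Amot*, which binds YAP, fell by 0.65 (edgeR adjusted p = 0.00112, 0.0163 and 0.000783). These shares, 10% and 5%, lie below the 18.1% and 13.4% of all genes. In the crypts *Taok1* was the only one of 20 called (log2 fold change 0.54, edgeR adjusted p = 0.0413), or 5% against 4.3% of all genes. In the KO-IEC organoids 0 of 19 were called by edgeR, with 4 at an unadjusted p under 0.05 and 0 by DESeq2.

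Relatives of the 8 genes were tested as well. Of the other Ly6 family genes, 7 passed the filter in the KO-CAG experiment and 3 rose (42.9%, against 18.1% of all genes), 2210407C18Rik (log2 fold change 2.55, edgeR adjusted p = 4.49e-05), *Lypd8*, which keeps bacteria off the colon surface (1.07, edgeR adjusted p = 9.72e-05), and *Lynx1*, from 7 and 9 to 22 and 28 counts (edgeR adjusted p = 0.0164). *Ly6e*, which like *Ly6a* is inducible by interferon, had log2 fold changes of 0.29, 0.32 and -1.22 in KO-CAG organoids, crypts and KO-IEC organoids, and none passed. Of 10 other annexins tested in KO-CAG organoids 5 rose (50%, against 18.1%), *Anxa10* (2.81), *Anxa5* (1.59), *Anxa2* (1.01), *Anxa8* (2.79) and *Anxa6* (1.23), and 0 fell. *Anxa5* went from 14.8 ± 1.8 to 44.7 ± 8.2 CPM (SD, n = 2 each, edgeR adjusted p = 9.72e-05) and *Anxa2* from 243 ± 3.4 to 489 ± 96.5 CPM (edgeR adjusted p = 0.000293). In the crypts edgeR called 0 of 6 Ly6 relatives and 0 of 7 annexins, with 1 at an unadjusted p under 0.05 in each list, and DESeq2 called 2 and 0. In the KO-IEC organoids it called 0 of 8 and 0 of 10, with 1 at an unadjusted p under 0.05 in each and 0 by DESeq2.

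Of the genes whose products bind those of the 8 genes or of their relatives, 6 passed in the KO-CAG experiment, of which 3 rose (50%, against 18.1% of all genes) and 2 fell (33.3%, against 13.4%). *S100a11*, the partner of *Anxa1*, rose by 1.37 (edgeR adjusted p = 8.85e-06), *S100a10*, the partner of *Anxa2*, by 0.65 (edgeR adjusted p = 0.00141), and *Lgals3*, a galectin that binds *Mcam*, by 2.82 on the log2 scale (edgeR adjusted p = 5.54e-05). *Vldlr*, a lipoprotein receptor that can take up clusterin, fell by 0.62 (edgeR adjusted p = 0.00189) and *Il1rap*, the co-receptor for *Il33*, fell by 0.58 (edgeR adjusted p = 0.0461). In the crypts and the KO-IEC organoids 0 of 6 were called by edgeR, with 1 at an unadjusted p under 0.05 in each and 1 and 0 by DESeq2.

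Genes of the crypt base columnar stem cell, the state opposite to the fetal-like one, were taken as a contrast. In KO-CAG organoids 1 of 18 rose (5.56%, against 18.1% of all genes) and 8 fell (44.4%, against 13.4%). *Lgr5*, the receptor for R-spondin, fell from 509 ± 21.6 to 214 ± 43.1 CPM (SD, n = 2 each, log2 fold change -1.25, edgeR adjusted p = 9.27e-05), *Aqp4* fell by 0.98 (edgeR adjusted p = 7.58e-05) and *Prom1* fell by 0.57 (edgeR adjusted p = 0.00111), while *Tnfrsf19* rose by 2.32 (edgeR adjusted p = 0.000154). *Olfm4* did not pass there (log2 fold change -0.11, edgeR adjusted p = 0.569). In the crypts 0 of 18 rose and 3 fell (16.7%, against 2.66% of all genes), *Lgr5* (log2 fold change -0.74), *Ascl2* (-0.67) and *Cdca7* (-0.48), with edgeR adjusted p = 0.0379, 0.0499 and 0.0491. In the KO-IEC organoids *Lgr5* was at 190 and 227 CPM in WT against 77.8 and 70.0 CPM in KO-IEC (log2 fold change -1.50, edgeR adjusted p = 0.856), and edgeR called 0 of 18, with 7 at an unadjusted p under 0.05 and 2 by DESeq2.

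Interferon response genes were included because *Ly6a* is one of their kind. In the crypts 8 of 19 rose (42.1%, against 4.3% of all genes) and 0 fell, led by *Oasl2* (log2 fold change 1.75, edgeR adjusted p = 0.0226), *Ifit3* (2.12, edgeR adjusted p = 0.0234) and *Trim30a* (2.79, edgeR adjusted p = 0.0258), which encode antiviral or immune regulatory proteins. These crypt calls, like those of the other lists, were lost when the mitochondrial RNA class or the replicate block entered the fit. In KO-CAG organoids 9 of 15 rose (60%, against 18.1% of all genes) and 0 fell, led by *Oasl2* (1.79, edgeR adjusted p = 0.000245), *Psmb8*, a subunit of the immunoproteasome (1.92, edgeR adjusted p = 0.000362), and *Irf7*, a transcription factor of the response (1.85, edgeR adjusted p = 0.000363). In the KO-IEC organoids edgeR called 0 of 14, with 1 at an unadjusted p under 0.05 and 0 by DESeq2. There 10 of the 14 had a negative and 4 a positive log2 fold change. The median of the list was -0.347 in KO-IEC organoids, against 0.880 in crypts and 0.528 in KO-CAG organoids. Values of *Ly6a* in the 3 experiments were given above, and its dependence on these genes was not tested.

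**Figure D4:**
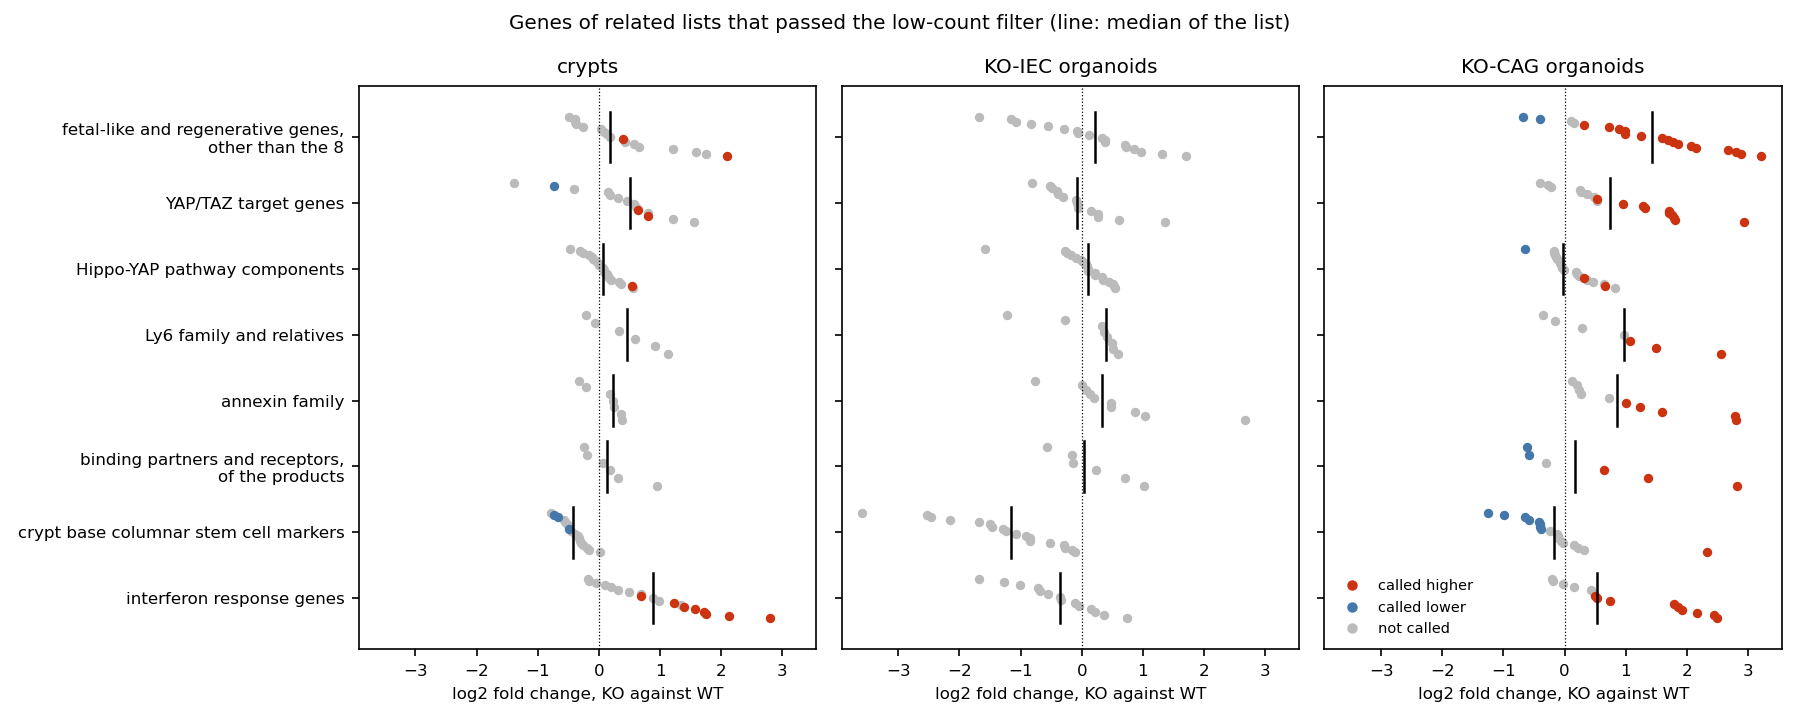
Log2 fold change of KO against WT for every gene of 8 related lists that passed the low-count filter, with called genes in red (higher) and blue (lower), others in grey, and the median of each list as a vertical line. In KO-CAG organoids 16 of 20 other fetal-like genes are red and 8 of 18 stem cell markers blue, whereas no point is coloured in KO-IEC organoids.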

How the data were processed

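The members and gene lists were chosen with earlier results of these data known. The authors deposited raw read counts per gene without normalization, in 1 table per experiment, with gene lengths. Submitters' processing notes name HISAT2 2.0.5 and featureCounts 1.5.0-p3. Genome build and strand setting were not given in the sources used here, and 95.2% to 98.3% of gene positions equalled GENCODE M21 (GRCm38). Columns were assigned to samples by their labels.

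Each experiment was fitted alone, KO against WT, without a block. Genes were filtered with filterByExpr, scaled by TMM and tested with edgeR 4.0.16 (quasi-likelihood) under R 4.3.3, and p-values were adjusted by Benjamini-Hochberg over the genes tested. A gene was called at an adjusted p under 0.05. The study's methods used DESeq2 with a 2-fold threshold as well, and DESeq2 1.42.0 and that threshold were alternatives. The scripts were tested on simulated data. No library was left out. Where replicates are separate cultures of unknown origin, p-values measure only the spread between these libraries. The 8 genes are all named. From each list every called gene is named where at most 6 were called, otherwise the 3 with the lowest p in each direction, and *Yap1*, *Cyr61*, *Ctgf*, *Gja1*, *Spp1*, *Il1rl1*, *Ly6c1*, *Ly6e*, *Anxa2*, *Anxa5*, *Lgr5*, *Olfm4* and *Cul4b* always. A further gene named by this rule is not reported here. *Areg* in KO-IEC organoids was added after its values were seen. Classes of mitochondrial ribosomal RNA (*mt-Rnr1* and *mt-Rnr2*) had bounds at 100 and 2000 CPM.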

Additional observations from a re-analysis of the deposited data

Results flagged for a closer look

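For 4 genes every KO library lay on one side of the WT mean in 1 experiment and on the other side in another. These differences between experiments were not tested, and the genes were selected on the values compared. Mean log2 CPM of *Clu* in KO minus WT was -1.81 for crypts, 2.99 for KO-IEC organoids and 2.43 for KO-CAG organoids. For *Anxa1* it was -0.37 for crypts, where no library held more than 3 counts, 2.34 for KO-IEC organoids and 3.74 for KO-CAG organoids. For *Mcam* it was -1.30 for KO-IEC organoids and 4.81 for KO-CAG organoids. For *Msln* it was -1.45 in crypts and 2.55 in KO-CAG organoids.

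*Mcam* in crypt WT replicate 4 was at 1.05 CPM (13 counts), and its gap to the other WT libraries was 0.877 of the range of the group. It was the only value past Dixon's limit in 16 groups of 4 libraries, of which chance flags about 1 in 20.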

How the results depend on the processing

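No alternative other than leaving out a library changed the sign of a fold change of the 8 genes, and the reversal was *Msln* in KO-IEC organoids, -1.19 without KO-IEC replicate 1 and 3.27 without WT replicate 1. The median log2 fold change covers only those of the 8 genes that passed the filter. With 1 library left out, it ranged from 0.832 to 1.25 in crypts, 0.445 to 2.67 in KO-IEC organoids and 2.29 to 3.56 in KO-CAG organoids. Called genes over all lists ranged from 0 to 26 in crypts (17 in all libraries), 0 to 30 in KO-IEC organoids (0) and 54 to 74 in KO-CAG organoids (62), and for the other fetal-like genes from 0 to 4 higher and 0 to 1 lower, 0 to 1 higher and 0 to 4 lower, and 13 to 17 higher and 1 to 2 lower. In crypts the lists gave 32 calls with DESeq2, 8 with a 2-fold threshold and 0 with the mitochondrial class, and the other fetal-like genes gave 1 higher with DESeq2 size factors, library size only, at least 10 counts in every library or the 2-fold threshold and 0 with the class. In KO-IEC organoids the lists gave 21 calls without the low-count filter (2 fetal-like genes higher and 2 lower), 2 with DESeq2 and 3 with all 16 libraries in 1 fit. In KO-CAG organoids they gave 37 with the 2-fold threshold (0 fetal-like genes lower) and 17 with 1 fit (6 higher, 0 lower). The cause of these changes was not tested.

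Replicate numbers are shared between WT and KO, but same-numbered crypt libraries deviated with correlations of -0.044, 0.190, -0.395 and 0.434, and the organoid experiments, with 0.342 and 0.067, hold 2 pairs each, so the numbers were not taken to pair libraries. With the replicate block, median log2 fold changes of the genes that passed were 1.03, 1.34 and 2.76 in crypts, KO-IEC and KO-CAG organoids. List calls were then 0, 0 and 70 (fetal-like genes higher 0, 0 and 16).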
